A study of Homo sapiens with 12 samples.

Results

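The genes described here are 9 human MAP kinase phosphatase genes of the dual-specificity phosphatase (DUSP) family: DUSP1, DUSP2, DUSP4, DUSP5, DUSP6, DUSP7, DUSP8, DUSP10 and DUSP16. They were taken by name from 19974 protein-coding genes, and every enriched region that overlapped a gene body or the 2 kb on either side was counted as lying at that gene. In all, 33 of 161480 deposited regions met this rule, from 5 of the 6 region lists. Histones H3.1/H3.2 (H3.1 below) and H3.3 had been mapped by chromatin immunoprecipitation and sequencing (ChIP-seq) in MCF10AER/vSrc cells, with 1 ChIP library and 1 input library per histone and time. MCF10A is an established human line of breast epithelium that does not form tumours, and ER/vSrc names a v-Src oncoprotein made inducible by fusion with part of the estrogen receptor. All groups had the genotype WT per the labels and were grown without phenol red in charcoal-stripped serum with EGF, insulin, hydrocortisone and cholera toxin. The control group was labelled Control, with no vehicle, dose or time given. The treated groups had D-alanine for 4 h or 24 h, which per the series design raised reactive oxygen species inside nuclei. Its dose, 10 nM in the labels, is low for this compound and was not checked elsewhere. Whether v-Src was induced is not given in the labels. These lists hold no expression values, so the identity of the cells could not be checked on marker genes.

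MAP kinase phosphatases switch off MAP kinases by removing phosphate from both the threonine and the tyrosine of the activation loop. They are classed by where they act and on which kinase. DUSP1, DUSP2, DUSP4 and DUSP5 are nuclear enzymes, most of them made within minutes to hours of a stimulus. DUSP6 and DUSP7 are cytoplasmic enzymes selective for ERK, and DUSP8, DUSP10 and DUSP16 act mainly on JNK and p38. Their catalytic cysteine can be oxidised by reactive oxygen species, which inactivates the enzyme and prolongs kinase signalling. H3.1 is a histone variant deposited mainly during DNA replication, whereas H3.3 is deposited through the whole cell cycle and replaces histones at active genes.

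H3.3 at 24 h was the list in which most of these genes held a region. In it 8 of 9 genes held 19 regions, and DUSP8 was the exception. Of all protein-coding genes, 60.2% held a region in that list. In H3.3 control cells 1 of 9 genes did, DUSP7, with 1 region (21.3% of all genes), and at 4 h 0 of 9 did (8.97% of all genes). H3.1 lay at 3 of 9 genes in control cells, DUSP2, DUSP8 and DUSP10, with 5 regions (44.3% of all genes). H3.1 was called at 2 of 9 genes at 4 h, DUSP8 and DUSP16, with 2 regions (17.1% of all genes). At 24 h it was called at 3 of 9 genes, DUSP4, DUSP8 and DUSP16, with 6 regions (28.4% of all genes). With 1 library per histone and time there is no estimate of the spread between cultures, so none of these counts was tested between conditions. A gene without a region is one where the caller listed none, and the histone may still be present there. Every one of the 9 genes held a region in at least 1 list, where 26.3% of all genes held none in any.

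**Figure D1:**
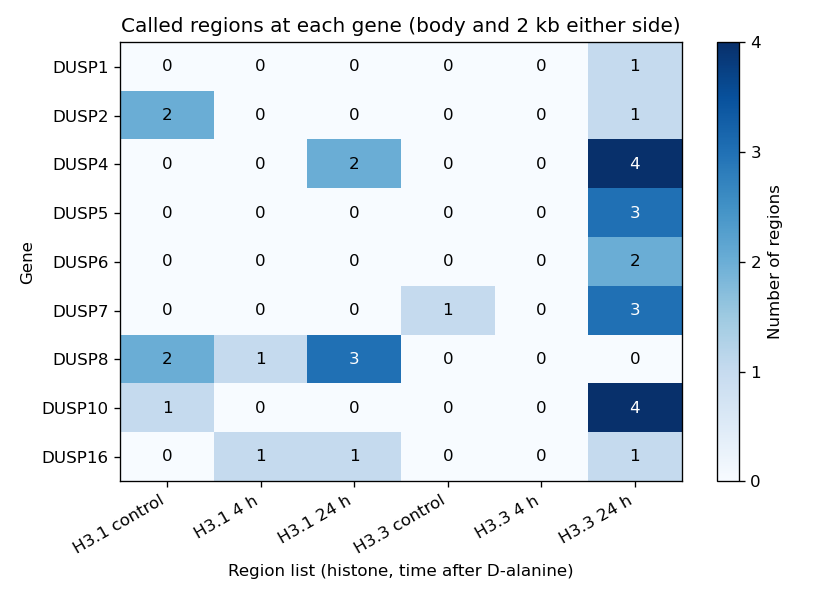
Number of called regions at each of the 9 genes (rows) in each of the 6 lists (columns), with the number printed in the cell and shaded from 0 to 4. The H3.3 24 h column holds 19 regions at 8 genes, and DUSP8 is the gene with 0 there and regions in all 3 H3.1 lists.

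The lists differed in length and the genes in size. The H3.3 24 h list held 81405 regions in all, against 44990, 7949 and 13641 in the H3.1 control, 4 h and 24 h lists and 9867 and 3628 in the H3.3 control and 4 h lists. ChIP depth was 16837079 to 19576955 tags per library. When each list was held to its 3614 highest-scoring regions, the H3.3 24 h count went from 8 genes to 1, DUSP6, and the H3.1 counts from 3, 2 and 3 genes to 1, 0 and 2. The share of all protein-coding genes at that list length was not computed. DUSP genes are short, with a median body of 13.6 kb against 24.2 kb over all protein-coding genes. All 4 members of 2 to 10 kb (DUSP1, DUSP2, DUSP6 and DUSP7) held an H3.3 region at 24 h, where 44% of all genes of that length did. Of the 5 members of 10 to 100 kb, 4 did, where 63.7% of all such genes did. In the H3.1 control list 1 of the 4 short and 2 of the 5 longer members held a region (34.1% and 46.3% of all genes of those lengths), and in the H3.1 24 h list 0 and 3 did (18.8% and 29%). Per 100 kb of gene window, the members held 8.1 H3.3 regions at 24 h and all protein-coding genes 3.64. Each density pools regions over all windows of its group, so long genes weigh most in that of all genes. It was not matched for gene length, so it does not show an excess over genes of like size. For H3.3 these densities were 0.426 and 0.513 in control cells and 0 and 0.164 at 4 h. For H3.1 they were 2.13 and 2.14 in control cells, 0.853 and 0.381 at 4 h and 2.56 and 0.722 at 24 h.

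By time, the H3.3 lists differed at 8 of the 9 genes, DUSP8 being the exception. In the H3.3 lists, 7 genes were called at 24 h alone when set against control (43.4% of all genes), DUSP7 was called at both (16.8%), and 0 were called in the control list alone (4.5%). When 4 h was set against control, DUSP7 was in the control list alone (16.5%), 0 genes were in the 4 h list alone (4.18%) and 0 in both (4.79%). The H3.1 lists differed in both directions. At 24 h, DUSP2 and DUSP10 no longer held the H3.1 region they held in control cells (25%), DUSP4 and DUSP16 held one that they lacked in control cells (9.09%), and DUSP8 held one at both (19.3%). At 4 h, DUSP2 and DUSP10 held none either (31.4%), DUSP16 held one that it lacked in control cells (4.2%), and DUSP8 held one at both (12.9%). The comparisons at 4 h and 24 h share the control libraries. DUSP1, DUSP5 and DUSP6 held regions in the H3.3 24 h list and in no other (13.5% of all genes).

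**Figure D2:**
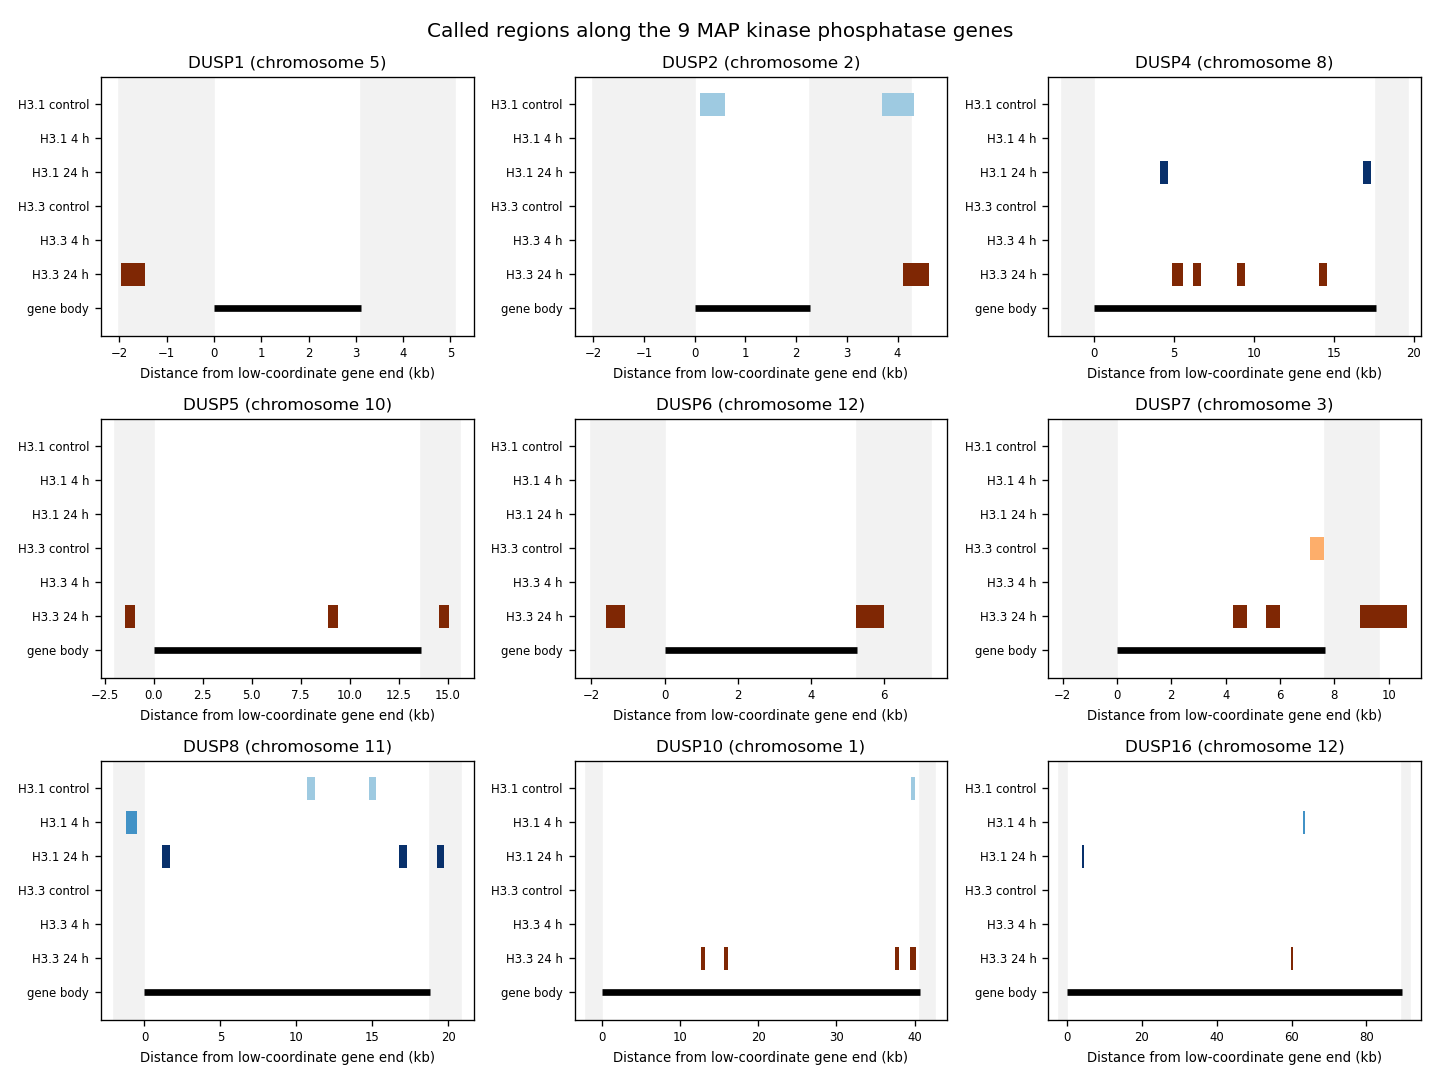
Position of every called region (coloured bars, drawn to scale) along each gene, as distance in kb from the gene end with the lower coordinate; the black bar is the gene body, the grey bands are the 2 kb flanks, and each row is 1 list. DUSP4, DUSP7 and DUSP10 carry 4, 3 and 4 H3.3 regions at 24 h, and the H3.1 control region of DUSP10 lies at the position of an H3.3 24 h region.

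Among the nuclear phosphatases, DUSP1 encodes MKP-1, an immediate-early enzyme that inactivates JNK, p38 and ERK. It lies on the minus strand of chromosome 5 (172768096 to 172771195, hg38). Its single region was an H3.3 region at 24 h (172766134 to 172766634), 1462 bp beyond the low-coordinate end, which is the 3′ end of the gene. That region held 8.68 normalised tags (tags per 10000000 tags of the ChIP library), from 17 ChIP tags and 2 input tags. Its fold over input, which the authors computed after bringing both libraries to one depth, was 7.19 (exact 95% interval 1.71 to 64.2). The nearest H3.1 regions lay 4028 bp from the gene in control cells, 15587 bp at 4 h and 17261 bp at 24 h.

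The DUSP1 promoter is shown with that of DUSP8, a JNK and p38 phosphatase, since both carry the cAMP response element (CRE), a binding site of CREB and ATF factors. RefSeq promoters (GRCh38.p14, 250 bases before to 50 bases after the start) were at hand for 7 of the 9 genes, 8 in all since DUSP10 has 2. The CRE TGACGTCA, which reads alike on both strands, was present in 2 of these genes and in 2.26% of 22132 protein-coding promoters. DUSP1 held 1 copy, 125 to 118 bases before the start, and DUSP8 held 2, at 118 to 111 and 74 to 67 bases before it. The half-site TGACG, searched on both strands and contained in each CRE, was present in 27.9% of promoters. Among the members it was in those of DUSP1 and DUSP8 and in the DUSP10 promoter with its start at 221736900. The CRE was picked from several motifs searched. Of the others, the E-box CACGTG was in DUSP1 and DUSP2 (8.34% of all promoters) and TATAAA in DUSP1 (9.46%). The GC box GGGCGG was in all but DUSP6 (56.3%), and the ETS motif CCGGAAGT (5.35%) and the CArG box (1.25%) were in none. Capitals mark CRE and half-site letters in the promoters of DUSP1 (chr5:172771146-172771445, minus strand) and DUSP8 (chr11:1572222-1572521, minus strand), both written 5′ to 3′.

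DUSP1: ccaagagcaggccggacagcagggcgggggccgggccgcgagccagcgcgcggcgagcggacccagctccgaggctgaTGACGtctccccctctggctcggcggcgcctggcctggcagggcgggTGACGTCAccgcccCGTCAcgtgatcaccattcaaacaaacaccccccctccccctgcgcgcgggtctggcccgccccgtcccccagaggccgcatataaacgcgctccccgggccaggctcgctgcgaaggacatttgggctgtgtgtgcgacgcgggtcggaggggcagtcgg

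DUSP8: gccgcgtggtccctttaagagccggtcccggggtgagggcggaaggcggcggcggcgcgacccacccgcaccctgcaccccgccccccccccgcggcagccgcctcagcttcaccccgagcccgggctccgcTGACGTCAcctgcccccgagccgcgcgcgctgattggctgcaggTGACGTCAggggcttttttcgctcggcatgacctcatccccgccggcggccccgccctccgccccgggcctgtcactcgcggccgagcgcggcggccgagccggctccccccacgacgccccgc

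None of the 6 lists had a region that overlapped either promoter. A letter match describes the sequence and does not show that a factor binds there.

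DUSP2, also called PAC1, is a nuclear phosphatase best known from activated lymphocytes. It is the shortest of the 9 genes, with a body of 2272 bp on chromosome 2 (96143169 to 96145440, minus strand). In control cells it held 2 H3.1 regions. The one upstream of the gene start (96146865 to 96147495) held 15 normalised tags, from 28 ChIP and 4 input tags, at a fold of 5.93 (2.08 to 23.3). The other (96143274 to 96143774) lay inside the gene and held 6.97 normalised tags with a fold of 5.51 (1.25 to 50.3). In the treated H3.1 lists the nearest region lay 6770 bp from DUSP2 at 4 h and 32458 bp at 24 h. The H3.3 24 h region of DUSP2 (96147282 to 96147782) overlapped the upstream H3.1 control region by 213 bp. It held 8.68 normalised tags with a fold of 4.8 (1.39 to 25.5), and its midpoint lay 2092 bp upstream of the gene start, just outside the 2 kb window. DUSP2 therefore left the H3.3 24 h count when the midpoint had to lie in the window.

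DUSP4 encodes MKP-2, a nuclear phosphatase of ERK and JNK. The gene lies on chromosome 8 (29333064 to 29350684), and it was the one member at which both histones had been called at 24 h at more than 1 region each. It held 2 H3.1 regions at 24 h and none in control cells or at 4 h, when the nearest lay 142191 and 261306 bp away. The stronger H3.1 region (29349905 to 29350405) lay inside the gene with its midpoint 529 bp from the high-coordinate end. It held 20.8 normalised tags, from 35 ChIP and 6 input tags, at or above 95.4% of the regions of that list, at a fold of 6.28 (2.61 to 18.3). The other H3.1 region (29337210 to 29337710) held 17.8 normalised tags with a fold of 4.61 (1.99 to 12.4). The 4 H3.3 regions at 24 h lay between these 2 H3.1 regions. The first of them (29337976 to 29338680) started 266 bp past an H3.1 region and held 10.2 normalised tags from 20 ChIP tags and 0 input tags. With no input tag the fold has no upper end, and the lower end of its exact 95% interval was 4.18. Of the other H3.3 regions, one with 0 input tags had a lower end of 3.49, and the others had folds of 4.44 (1.5 to 17.8) and 11.9 (1.8 to 501). No H3.1 region of DUSP4 overlapped an H3.3 region, and the share of overlap between these 2 lists over all regions was not computed.

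DUSP5 is a nuclear phosphatase selective for ERK. It lies on chromosome 10 (110497907 to 110511533) and held 3 H3.3 regions at 24 h and none in any other list. One lay 970 bp outside the low-coordinate end (110496437 to 110496937), where it overlapped the annotated transcript DUSP5-DT, one inside the gene (110506801 to 110507301) and one 964 bp outside the high-coordinate end (110512497 to 110512997). They held 8.17, 8.68 and 6.64 normalised tags. The region inside had 0 input tags and a lower end of 3.49 for its fold, and the outer ones had 1 input tag each, at folds of 13.5 (2.1 to 568) and 11 (1.65 to 468). Those wide intervals show how little a single input tag fixes the fold. In the other 5 lists the nearest region lay 36440 bp (H3.1 control) to 347289 bp (H3.3 control) away.

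The cytoplasmic ERK phosphatases DUSP6 and DUSP7 held no H3.1 region in any list. Of all protein-coding genes, 44.3%, 17.1% and 28.4% held one in the H3.1 control, 4 h and 24 h lists. The nearest H3.1 control region lay 4853 bp from DUSP7, and DUSP9, of the same class but no member, held 3 H3.1 control regions. DUSP6 encodes MKP-3, a feedback inhibitor that rises with ERK activity. It lies on chromosome 12 (89347235 to 89352501, minus strand) within the annotated read-through gene POC1B-DUSP6, so its regions were also counted for that gene. At 24 h an H3.3 region (89352455 to 89353227) spanned the gene start. It held 20.4 normalised tags, from 40 ChIP and 7 input tags, at or above 94.4% of the regions of that list, at a fold of 4.84 (2.14 to 12.8). That fold was at or above only 17.5% of the regions of the list. The region was 772 bp wide, where the median of the list was 500 bp. The other H3.3 region (89345644 to 89346144) lay 1091 bp outside the 3′ end with 7.15 normalised tags and 0 input tags, with a lower end of 2.81 for its fold. DUSP6 was the one member that stayed in the H3.3 24 h list at equal list length.

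DUSP7, also known as PYST2, is like DUSP6 a cytoplasmic phosphatase of ERK. It lies on chromosome 3 (52048919 to 52056571, minus strand). Its H3.3 control region (52056030 to 52056530) lay inside the gene, 41 bp from the start. That region had the lowest fold of all 33, at 4.01 (1.1 to 21.9), with 7.26 normalised tags from 13 ChIP and 3 input tags, and it was lost at a Poisson p of at most 1e-06. At 24 h DUSP7 held 3 H3.3 regions, none of which overlapped the control region, the nearest ending 1118 bp from it. The share of overlap between the H3.3 control and 24 h lists over all regions was not computed. The widest region at any member lay upstream of DUSP7 (52057855 to 52059580, 1725 bp, 1284 bp from the gene). It held 35.8 normalised tags, from 70 ChIP and 12 input tags, the most of the 33 regions, at a fold of 4.94 (2.66 to 10). That fold was at or above only 18.6% of the regions of its list. Inside the gene the other H3.3 regions (52053202 to 52053702 and 52054412 to 52054912) held 10.2 normalised tags each, at folds of 5.64 (1.67 to 29.7) and 16.9 (2.71 to 702).

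The promoters of DUSP6 and DUSP7 are the 2 among the 8 with a sequence that a called region touched, and they are shown with the bases inside the region in capitals. The H3.3 24 h region covered 297 of the 300 bases of the DUSP6 promoter (chr12:89352452-89352751, minus strand, GRCh38.p14). The H3.3 control region reached 9 bases of the DUSP7 promoter (chr3:52056522-52056821, minus strand). Over all protein-coding promoters, 4.53% were touched by an H3.3 region at 24 h and 1.47% in control cells. In the other lists 0 of the 8 promoters were touched, where the share of all promoters was 2.59%, 0.773% and 2.49% in the H3.1 control, 4 h and 24 h lists and 0.212% in the H3.3 4 h list. Both sequences run 5′ to 3′.

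DUSP6: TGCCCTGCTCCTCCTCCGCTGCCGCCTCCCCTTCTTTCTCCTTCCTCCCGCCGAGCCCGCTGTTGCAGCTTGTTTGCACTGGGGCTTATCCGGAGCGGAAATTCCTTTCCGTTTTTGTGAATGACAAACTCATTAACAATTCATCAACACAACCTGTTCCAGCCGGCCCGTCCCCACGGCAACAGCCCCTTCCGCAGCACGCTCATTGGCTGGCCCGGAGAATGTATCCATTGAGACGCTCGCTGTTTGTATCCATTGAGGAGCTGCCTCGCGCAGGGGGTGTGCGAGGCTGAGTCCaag

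DUSP7: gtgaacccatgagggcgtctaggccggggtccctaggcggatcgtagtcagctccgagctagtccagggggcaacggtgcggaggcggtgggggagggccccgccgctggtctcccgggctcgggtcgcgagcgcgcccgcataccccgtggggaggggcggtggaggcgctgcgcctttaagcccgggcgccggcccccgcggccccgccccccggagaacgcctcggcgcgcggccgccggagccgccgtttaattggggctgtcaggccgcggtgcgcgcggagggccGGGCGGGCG

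The DUSP6 promoter was 58.3% G and C with 19 CpG dinucleotides, and that of DUSP7 was 78% with 45 CpG. Over all protein-coding promoters the medians were 62.3% and 21. Neither held a CRE, a half-site or the AP-1 motif TGANTCA (both strands, 6.15% of promoters), which was found in none of the 7 genes' promoters.

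Among the JNK and p38 phosphatases, DUSP8 differed from the other 8 genes. It held H3.1 regions in all 3 H3.1 lists and no H3.3 region in any list. How many protein-coding genes share that pattern was not computed. Within 5 Mb of DUSP8 lay 87 H3.1 regions at 4 h and 164 at 24 h, in each case the most around any member. These had 5.82 and 5.48 input tags on average. In the H3.1 control list 219 regions lay there, against 593 around DUSP1. The H3.3 control list held 152 there, also the most around any member, yet none at DUSP8. The H3.3 24 h list held 199 there, where the members ran from 68 around DUSP6 to 1082 around DUSP1. DUSP8 lies less than 5 Mb from the low-coordinate end of its chromosome. Its window was therefore cut short, and these raw counts are not from windows of one size. The part of local density in these calls was not tested. The gene lies on the minus strand of chromosome 11 (1554051 to 1572848), with the RefSeq promoter start at 1572271. In control cells its H3.1 regions lay inside the gene at 1564772 to 1565272 and 1568815 to 1569315. They held 9.65 and 10.2 normalised tags with folds of 15.3 (2.41 to 636) and 5.37 (1.58 to 28.3). At 4 h the H3.1 region (1552810 to 1553578) lay outside the 3′ end and held 18.2 normalised tags with a fold of 5.05 (2.08 to 14.8). It also lay within 2 kb of the predicted gene LOC124902608.

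At 24 h the 3 H3.1 regions of DUSP8 lay at both ends of the gene. The region upstream of the start (1573292 to 1573792, overlapping the transcript KRTAP5-AS1) held 20.2 normalised tags, from 34 ChIP and 6 input tags, at or above 94.6% of the regions of its list. Its fold was 6.1 (2.53 to 17.8). Downstream of the start, the region at 1570817 to 1571317 held 11.3 normalised tags with a fold of 4.09 (1.48 to 14). The edges of these regions lay 1021 bp upstream and 954 bp downstream of the start, so they flanked the promoter that carries the CREs without touching it. The third region (1555208 to 1555708) lay near the 3′ end and inside LOC124902608, with 13.1 normalised tags with a fold of 4.74 (1.75 to 16). No DUSP8 region of one H3.1 list overlapped one of another, and the share of overlap between these lists over all regions was not computed. The nearest H3.3 region at 24 h lay 9269 bp away, so with 10 kb flanks all 9 genes held one. The share of all protein-coding genes with such flanks was not computed.

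DUSP10 encodes MKP-5, a phosphatase of JNK and p38. The gene lies on the minus strand of chromosome 1 (221701424 to 221742089). In control cells it held 1 H3.1 region (221740955 to 221741455), whose nearer edge lay 634 bp inside the gene start. That region had 12 ChIP tags and 0 input tags, 6.43 normalised tags, and a lower end of 2.36 for its fold. At 24 h an H3.3 region (221740829 to 221741638) enclosed it over its whole 500 bp. This H3.3 region held 12.3 normalised tags from 24 ChIP and 2 input tags, at a fold of 10.2 (2.52 to 88.7). The nearest H3.1 region lay 94263 bp from DUSP10 at 24 h and 1445161 bp at 4 h.

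The other 3 H3.3 24 h regions of DUSP10 started at 221714138, 221717000 and 221738963, each inside the gene. They held 8.68, 8.68 and 10.7 normalised tags with folds of 7.19 (1.71 to 64.2), 4.8 (1.39 to 25.5) and 4.44 (1.5 to 17.8). The surroundings of DUSP10 were dense in this list. Within 5 Mb of the gene lay 709 H3.3 24 h regions with 3.47 input tags on average. Around DUSP1 on chromosome 5 these values were 1082 regions and 3.02 input tags, and around DUSP6 and DUSP16 on chromosome 12 they were 68 and 121 regions with 1.63 and 1.65 input tags. The part of local input depth in the counts per gene was not tested.

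DUSP16 encodes MKP-7, a JNK-selective phosphatase that shuttles between nucleus and cytoplasm. It is the longest of the 9 genes (chromosome 12, 12473282 to 12562863, minus strand, 89582 bp), yet it held only 3 regions, each inside the gene and each from another list. The H3.1 4 h region (12536393 to 12536893) held 9.11 normalised tags with a fold of 7.57 (1.78 to 67.8). The H3.1 24 h region (12477442 to 12477942) lay near the other end of the gene, with 11.3 normalised tags with a fold of 4.09 (1.48 to 14). The H3.3 24 h region (12533254 to 12533754) held 10.2 normalised tags with a fold of 8.46 (2.06 to 74.7) and lay 2639 bp from the H3.1 4 h region. The nearest edge of any of them to the gene start was 25970 bp away.

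**Figure D3:**
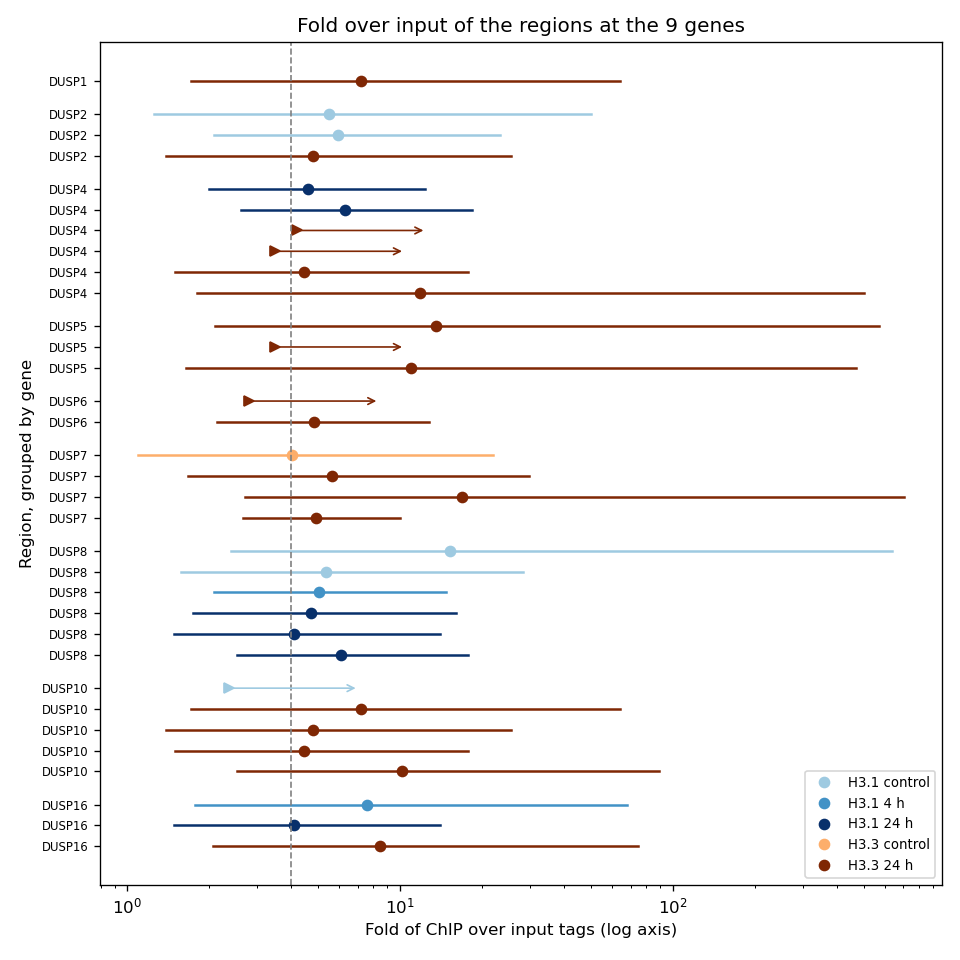
Fold of ChIP over input tags (log axis) for each of the 33 regions, grouped by gene and coloured by list, with lines for the exact 95% interval; right-pointing triangles with arrows are the lower ends of that interval for the 5 regions with 0 input tags, which have no upper end, and the dashed line is the authors' required fold of 4. The lower end is below 4 for 32 of the 33 regions, and the widest intervals drawn belong to regions with 1 input tag.

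Set beside one another, the regions at these genes held few tags. ChIP tags ran from 12 to 70 per region, and 5 of 33 regions had 0 input tags, of which 4 were in the H3.3 24 h list. For 32 of the 33 regions the lower end of the fold interval lay below the required fold of 4, so the size of each single fold is loosely fixed. Of the 33 regions, 27 were 500 bp wide, the peak size named in the file headers, and 1 was over 1 kb. By place, 23 lay inside a gene, 9 outside in a flank and 1 across a gene end. In the order H3.1 control, H3.1 4 h, H3.1 24 h and H3.3 24 h, median normalised tags at the members were 9.65, 13.7, 15.4 and 8.68, where the medians of the whole lists were 9.11, 10.2, 10.1 and 9.19. Median folds as the authors gave them were 5.93, 6.31, 4.68 and 8.46 in the same order, against 6.21, 4.73, 4.74 and 7.34 in the whole lists. With regions of 0 input tags at the lower end of their interval, the medians were 5.51, 6.31, 4.68 and 4.94, against 5.65, 4.73, 4.72 and 6.21, so for H3.3 at 24 h the members' median lay above or below that of the list depending on how such regions were valued.

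Positions were shared between lists at 2 places, the upstream region of DUSP2 and the region near the start of DUSP10, both between H3.1 control and H3.3 24 h. Those were 2 of the 5 H3.1 control regions (40%) and 2 of the 19 H3.3 24 h regions (10.5%) at these genes. Over all regions the shares were 33.8% and 18.6%. No pair of lists other than this shared a position at a member, although 4 other pairs had 1 member in common and 2 had 2. Of 19974 protein-coding genes, 1927 to 4433 were in both lists of such a pair. For those pairs the share of overlapping regions over all regions was not computed, so the lack of overlap is described only. At DUSP4, DUSP7, DUSP8 and DUSP16 the regions of different lists thus lay at different positions of the same gene.

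**Figure D4:**
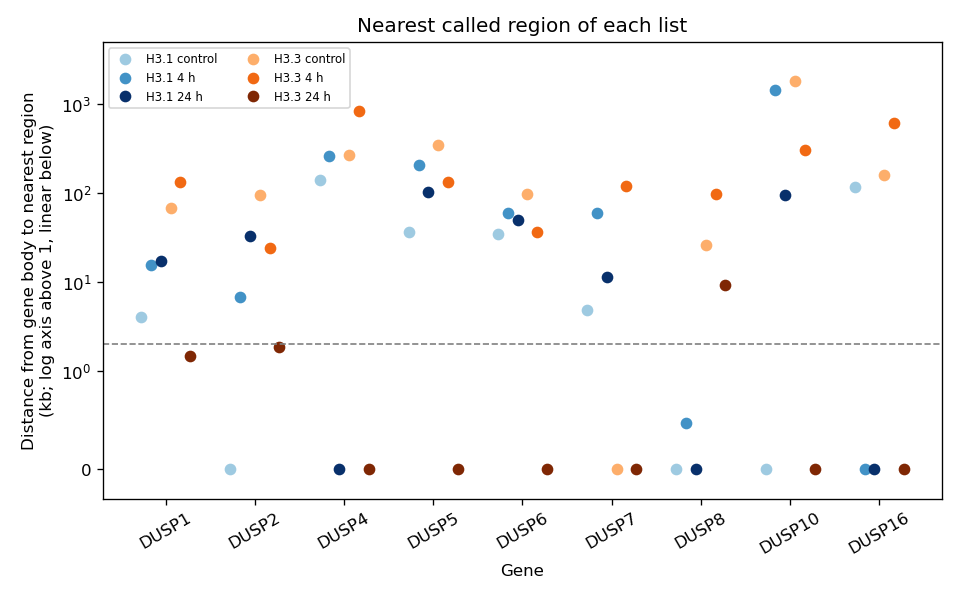
Distance in kb from each gene body to the nearest region of each list (log axis above 1 kb, linear below; 0 means a region overlaps the gene body); the dashed line marks the 2 kb window. H3.3 24 h points lie at or under 9269 bp for all 9 genes, whereas H3.3 4 h points lie between 23851 and 850148 bp.

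The distance to the nearest region also differed between the lists. Its median over the 9 genes was 0 bp for H3.3 24 h, 4853 bp for H3.1 control, 17261 bp for H3.1 24 h, 59635 bp for H3.1 4 h, 97631 bp for H3.3 control and 134153 bp for H3.3 4 h. DUSP8 was the farthest from H3.3 at 24 h, and DUSP4 was the farthest from H3.3 at 4 h (850148 bp) and from H3.1 in control cells (142191 bp). These distances follow the number of regions per list as well as their positions.

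Other genes of the MAP kinase pathway were taken from lists by role, 88 genes in all with a median body of 48.2 kb. Of these, 51 were in the H3.1 control list (58%, against 44.3% of all genes), 14 in the 4 h list (15.9% against 17.1%) and 27 in the 24 h list (30.7% against 28.4%). For H3.3 the counts were 20 in control cells (22.7% against 21.3%), 12 at 4 h (13.6% against 8.97%) and 66 at 24 h (75% against 60.2%). The H3.1 treated lists and the H3.3 control list were near the share of all genes. DUSP9, the X-linked cytoplasmic ERK phosphatase of the same family, held 3 H3.1 regions and 1 H3.3 region in control cells and none in the 4 treated lists. The 19 other DUSP and STYX genes, DUSP9 included, included 12 genes of the H3.3 24 h list (63.2%, near the 60.2% of all genes). For H3.1 they included 12 genes of the control list (63.2% against 44.3%), 2 of the 4 h list (10.5% against 17.1%) and 3 of the 24 h list (15.8% against 28.4%). Each of these differences between lists is untested for the same reason, 1 library per histone and time.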

How the data were processed

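The study comprised 12 samples, 6 ChIP and 6 input libraries with 1 of each per histone and time, sequenced as single-end reads of 50 bases. Per the submitters' processing notes, the authors used cutadapt 3.7, Bowtie2 2.4.1 and HOMER 4.11.1 with hg38. Per the file headers, each ChIP library had its own region list, made with HOMER in histone style over the matching input. The headers required a fold of 4 and a Poisson p-value of 1e-04 over input. The deposited signal was the tag number of a region per 10000000 tags, the deposited score was the region score of HOMER, and the deposited fold is a ratio, the ChIP tags divided by the input tags after scaling to one depth. The deposited p-value is the authors' own and was not adjusted. Where an input count was 0 the authors' files list 0.5, so for such a region the lower end of the exact interval is given in place of their fold.

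ChIP and input tags were recovered from these columns, and ChIP tags were whole to a tolerance of 0.1. Fold intervals are exact conditional binomial 95% intervals, cover counting error only and make no allowance for the calling of regions on the same tags. Tags are sequenced fragments without molecular identifiers. Genes came from the RefSeq table of GRCh38.p14, limited to protein-coding genes of chromosomes 1 to 22 and X, and gene strand and start came from RefSeq promoters. Exon structure was not used here. Overlap was 1 bp or more. No test between conditions was made. The members and gene lists were chosen with earlier results of these data known. All 9 members are described. Of the pathway genes, DUSP9 and at most 10 with regions in 4 or more lists were to be named, by number of lists, then of regions, then alphabetically. Python 3.11.15, numpy 2.4.6, pandas 2.3.3 and scipy 1.17.1 were used, and overlap counts and intervals were tested on simulated data.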

Additional observations from a re-analysis of the deposited data

How the results depend on the processing

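No paired analysis was possible because each histone and time had 1 ChIP library, which also left no replicate to leave out. Shares of all protein-coding genes were computed for the main setting alone, so the counts under other settings have none beside them. With the gene body alone, H3.1 4 h gave 1 member and 1 region. With 10 kb flanks, H3.1 control gave 5 members and 14 regions, H3.1 4 h 4 regions and 22 pathway genes, and H3.3 24 h 29 regions. At a fold of at least 8, 0 members and 0 regions were left for H3.1 4 h, H3.1 24 h and H3.3 control, 2 regions for H3.1 control and 10 for H3.3 24 h, of which 1 and 6 had an input tag. Pathway genes then numbered 28, 1 and 5 for H3.1 control, 4 h and 24 h, with 1 and 0 in the H3.3 control and 4 h lists. At a Poisson p of at most 1e-06, H3.3 control gave 0 members and 0 regions, and pathway genes numbered 7 for H3.1 4 h and 5 for H3.3 4 h. At equal list length, H3.1 control and H3.3 24 h each gave 1 member and 1 region, and H3.1 4 h and H3.3 control 0 of both. Pathway genes then numbered 9, 7 and 14 for H3.1 control, 4 h and 24 h, and 9, 12 and 7 for H3.3. H3.3 24 h thus had the fewest pathway genes of the H3.3 lists at equal length, where it had the most in the full lists. Whether the same holds over all protein-coding genes was not computed, so this is not a trait of the pathway genes. Equal length keeps fewer regions by construction in every list but H3.3 4 h, the shortest. Without regions that touch another protein-coding gene, H3.1 4 h gave 1 member and 1 region. H3.3 24 h kept 6 to 9 members under each setting but equal length, and the midpoint setting moved no count by over 1.5 times. With 1 tag added to ChIP and input, all 33 folds were lower than the authors' folds, which the arithmetic fixes for folds of 4 or more. All lay inside their intervals, which have no upper end for the 5 regions without an input tag. These folds were between 3.26 and 8.96 for the 28 regions with an input tag and between 11.2 and 17.9 for the 5 without. Of the 33, 7 were below 4. Single regions held 0 to 12 input tags each, which limits the precision of their folds.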

Other observations

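Within the MAP kinase pathway, MAP2K2, which encodes the ERK kinase MEK2, was the one gene of 88 with a region in all 6 lists, 10 in all over a body of 33.8 kb. ARRB1, an arrestin scaffold, MAPK8IP3, a JNK scaffold, MAP2K3, a p38 kinase kinase, and DUSP29, an atypical phosphatase, had regions in 5 lists. KSR2, a RAF and MEK scaffold, LRIG1, a negative regulator of growth factor receptors, the JNK genes MAPK9 and MAPK10, and MAP3K11 had regions in 4. In all, 13 of the 88 genes had regions in 4 or more lists, and only the first 10 in the stated order are named. ARRB1 held 14 H3.3 regions at 24 h and 8 H3.1 regions in control cells over 91.5 kb, whereas MAPK8IP3 held 5 H3.3 regions in control cells, 3 at 24 h and 6 H3.1 regions at 24 h over 64.2 kb. By role, 23 of 25 MAP kinase kinase kinase genes, 9 of 14 MAP kinase genes, 5 of 7 MAP kinase kinase genes, 8 of 10 scaffold genes and 9 of 13 feedback inhibitor genes were in the H3.3 24 h list. In the H3.1 24 h list these numbers were 5, 7, 4, 3 and 5. The background shares are the 60.2% and 28.4% of all protein-coding genes given above, and these roles have longer genes than the phosphatases, with medians of 77.2 to 105 kb. Of the 88 genes, 12 had no region in any list, where 26.3% of all protein-coding genes had none. The median body was 48.2 kb for the 88 genes and 24.2 kb for all protein-coding genes. The share of all genes with regions in 4 or more lists was not computed.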
